A study of Mus musculus with 4 samples.

Results

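Lysosomal enzymes and membrane proteins were examined in cultured mesenchymal cells of the mouse whisker follicle. Dermal papilla cells (DPCs) sit in the hair bulb, and dermal sheath cells (DSCs) wrap the follicle from outside. The 39 genes were taken by symbol from a list that includes Glb1, which encodes the enzyme stained as senescence-associated beta-galactosidase, and each symbol was found once among the 51826 genes of the count table. All 39 had a mean count of at least 10 over the libraries, as did 16734 genes in all, which are called the tested genes. By role they were 9 glycosidases, 4 sulfatases (with the sulfamidase Sgsh), 4 lipid and thioester hydrolases, 3 saposin and cholesterol carrier genes, 8 proteases, 8 membrane proteins, 2 proton pump subunits and the transcription factor Tfeb.

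The cells came from whisker follicles of mice aged 5 to 6 weeks. The labels give the genotype as WT, whereas the methods describe C57BL/6J mice that carry an EGFP transgene, so all groups shared it. Cells grown in DMEM, with 10% FBS by the methods, were taken at passage 3 (low passage) or passage 9 (high passage), and the study asked what sets them apart. RNA sequencing was done on 1 library for each of the 4 groups, so no difference below has a replicate check, and passage cannot be told apart from the time at which a library was made. The labels do not say whether the passages of a cell type came from 1 culture or how many animals were pooled.

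Lysosomes are acidic organelles in which hydrolases degrade sugars, lipids and proteins delivered by endocytosis and autophagy. A vacuolar proton pump acidifies the lumen, heavily glycosylated membrane proteins line it, and many of the genes carry an E-box element in their promoter that is bound by Tfeb and its relatives. An enlarged lysosomal compartment and raised beta-galactosidase activity are known features of senescent cultured fibroblasts.

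Total counts lay between 34981284 and 47604059 per library, and a count was present for 22230 to 23548 genes. Summed over 10 mesenchymal markers, the level was 21600, 8410, 30100 and 24300 CPM (counts scaled to a common library size) in DPCs at low and at high passage and in DSCs at low and at high passage, the order used for every set of 4 values below. Col1a1 (7240, 1220, 10700 and 8260 CPM) and Col1a2 (6510, 2620, 11800 and 9890 CPM) made up much of these sums. Of the 10 markers, 7 were lower at passage 9 in DPCs and 6 in DSCs. Pdgfra was higher in both, with 304, 811, 121 and 266 CPM. Keratinocyte markers (9 genes) summed to 2.34, 6.44, 4.01 and 52.7 CPM, with Krt5, Krt14, Krt15, Krt1 and Cdh1 at 3 counts or fewer in each library. Most of the last value came from Dsp, which had 10, 184, 84 and 2307 counts. Macrophage markers (14 genes) summed to 165, 69.5, 215 and 114 CPM, and all 14 were lower at passage 9 in both cell types.

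Promoters of 34 members were found in the RefSeq table (GRCm38.p6), which holds 250 bases before and 50 after a gene's start. They were searched for TCACGTGA, the core of the element bound by Tfeb, and for the E-box CACGTG that lies within it. Both read the same on either strand. The longer motif was present in 5 of the 34 (14.7%), against 304 of 27025 genes with a promoter (1.12%) and 2.14% of the tested genes with one. The shorter one was present in 11 (32.4%), against 8.09% and 11.5%. A match is a description of these letters and not a binding site. The sequences below are shown because they hold the motif, which is set in capitals, and each stands 5′ to 3′ on the strand of its gene.
Ctsa (chr2:164833749-164833778, plus strand): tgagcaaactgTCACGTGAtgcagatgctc
Ctsa (chr2:164833766-164833795, plus strand): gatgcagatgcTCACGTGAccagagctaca
Ctsd (chr7:142387908-142387937, minus strand): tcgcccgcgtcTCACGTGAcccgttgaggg
Mcoln1 (chr8:3500462-3500491, plus strand): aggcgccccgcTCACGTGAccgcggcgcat
Cln3 (chr7:126583340-126583369, minus strand): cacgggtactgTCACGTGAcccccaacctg
Atp6v0d1 (chr8:105566050-105566079, minus strand): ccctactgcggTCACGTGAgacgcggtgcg
Glb1 (chr9:114401018-114401047, plus strand): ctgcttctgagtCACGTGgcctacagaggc
Gaa (chr11:119267811-119267840, plus strand): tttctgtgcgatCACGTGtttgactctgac
Naglu (chr11:101070009-101070038, plus strand): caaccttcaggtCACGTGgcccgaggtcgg
Lamp1 (chr8:13159090-13159161, plus strand): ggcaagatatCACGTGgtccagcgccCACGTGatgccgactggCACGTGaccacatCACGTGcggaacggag
The Lamp1 stretch of 72 bases held 4 copies of the E-box and none of the longer motif. Sgsh and Ctsl held the E-box as well. The 5 genes with the longer motif encode a carboxypeptidase, an aspartic protease, a cation channel, a membrane protein mutated in Batten disease and a proton pump subunit.

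Levels of different genes were compared as FPKM (fragments scaled to transcript length and to the mapped fragments of the library), which the authors had computed. The members were abundant. Their median FPKM was 34.5, 49.2, 42.7 and 59.3 in the 4 libraries, while that of the tested genes lay between 5.14 and 5.47. Together they took 1.13% of the counts of low-passage and 1.502% of those of high-passage DPCs, and 1.43% and 1.65% in DSCs. Lamp1, the main glycoprotein of the lysosomal membrane, had the highest FPKM of the 39 genes in each library, with 687, 881, 897 and 907. Psap, the precursor of the saposins that help enzymes reach their lipids, had 432, 515, 589 and 725. Tfeb was the lowest in low-passage DPCs with an FPKM of 2.61, and in low-passage and high-passage DSCs with 3.54 and 3.57. In high-passage DPCs it had 3.76. Ctss was the lowest in high-passage DPCs with 1.88. The plot of levels shows these differences between genes beside the smaller ones between libraries.

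**Figure D1:**
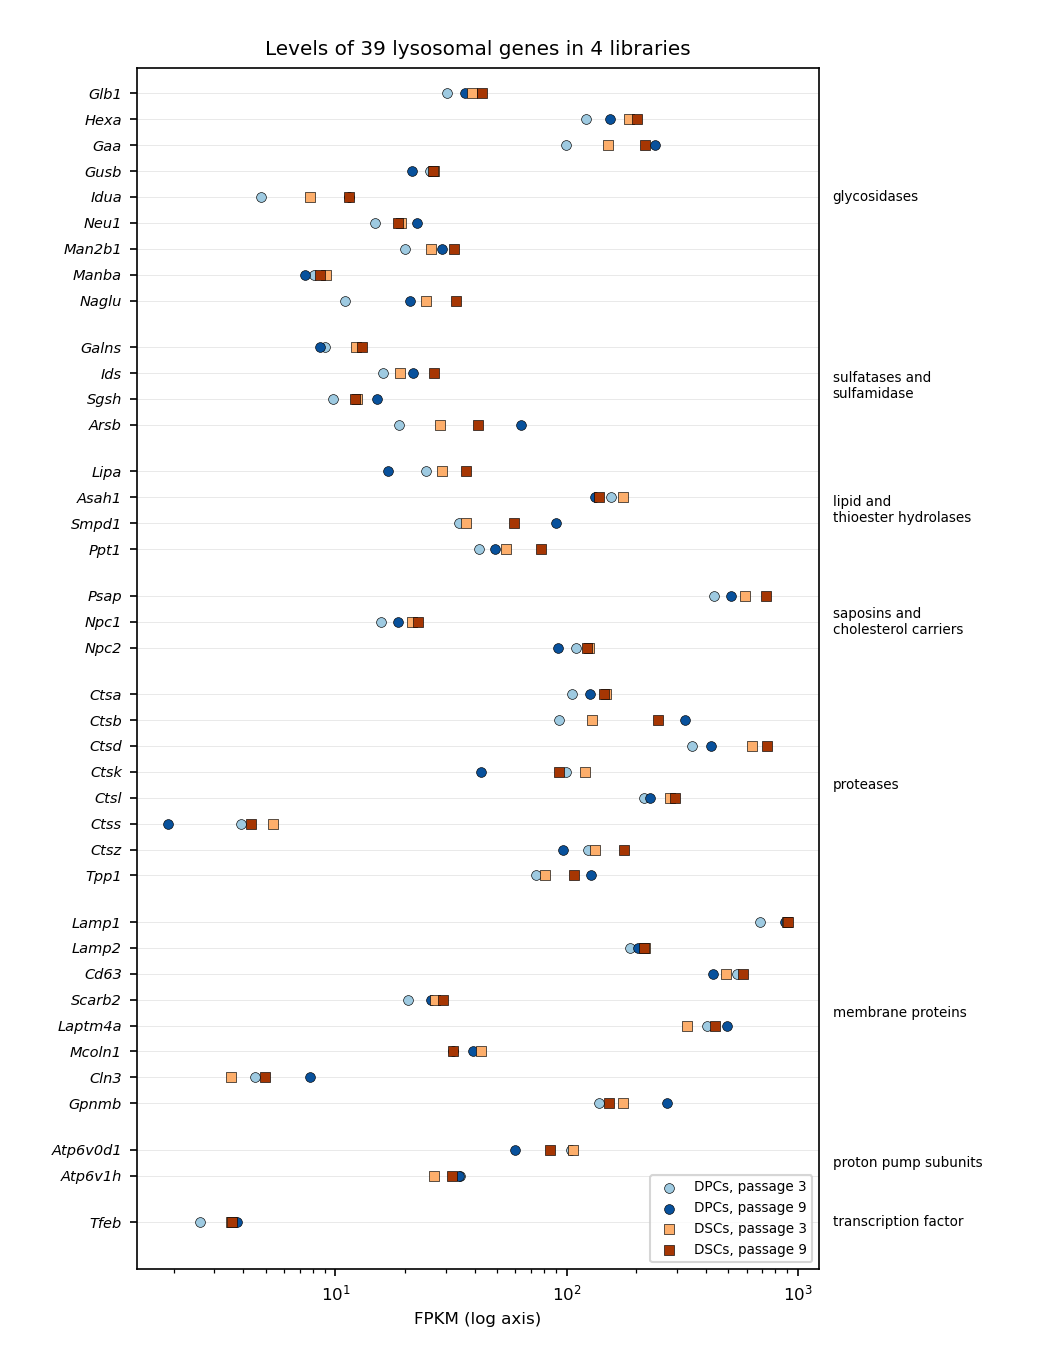
FPKM of the 39 lysosomal genes (log axis) by role, with circles for DPCs and squares for DSCs, light at passage 3 and dark at passage 9, 1 library per point. Lamp1 lies at 687 to 907 FPKM. Idua, Ctss, Cln3 and Tfeb lie furthest to the left at passage 3, and Manba, Ctss, Cln3 and Tfeb do at passage 9.

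The main comparison asked how the 39 genes differed between passage 3 and passage 9. Most were somewhat higher at passage 9, and few by much. Changes are differences of log2 CPM, where 1 is 2-fold, and a gene was called at 2-fold or more. In DPCs the median over the members was 0.30, beside 0.03 for the tested genes, and in DSCs it was 0.18 beside 0.00. In DPCs 27 members (69.2%) had a value above 0, against 51.3% of the tested genes, and in DSCs 31 (79.5%) did, against 50.2%. Both cell types gave a value above 0 for 25 members (64.1%), against 36.0%. Manba, Asah1, Ctsk, Ctss, Lamp2 and Atp6v0d1 were below 0 in both, and the remaining 8 differed in sign. Each change has a 95% interval, found by the exact Clopper-Pearson method for how the counts of a gene are shared between 2 libraries. It covers counting error only and compares libraries, not conditions. It left out 0 for 36 members in DPCs, beside 77.6% of the tested genes, and for 33 in DSCs, beside 66.7%. With counts halved, as counting of both mates of a read pair would require, it did so for 35 and 32, beside 69.1% and 55.9%. The members have higher counts than most tested genes, and intervals narrow with the count.

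In DPCs, Gaa, Idua, Arsb, Smpd1 and Ctsb rose at least 2-fold, which is 12.8% of the members beside 16.1% of the tested genes. Ctsk and Ctss fell, which is 5.13% beside 15.0%. In DSCs only Idua of the 39 genes rose, where 8.55% of the tested genes did, and no member fell, where 6.21% did. Idua alone rose in both cell types, against 4.86% of the tested genes. No member changed 4-fold, the threshold of the study, in either direction, where 5.58% of the tested genes were higher and 4.36% lower in DPCs, and 2.67% higher and 1.16% lower in DSCs. In log2 CPM over all tested genes, the shares past 2-fold were thus near or below those of the tested genes. For rises in DPCs this depended on the setting. With a minimum mean count of 1000, 5 of 36 members rose 2-fold in DPCs, where 8.87% of the genes did. With FPKM plus 1, 5 of 39 members did, where 6.65% of the genes did. Under each, 1 member fell 2-fold, beside 9.84% and 7.96% of the genes. As the plot of cumulative shares shows, the members also differed from the tested genes in the sign of small changes.

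**Figure D2:**
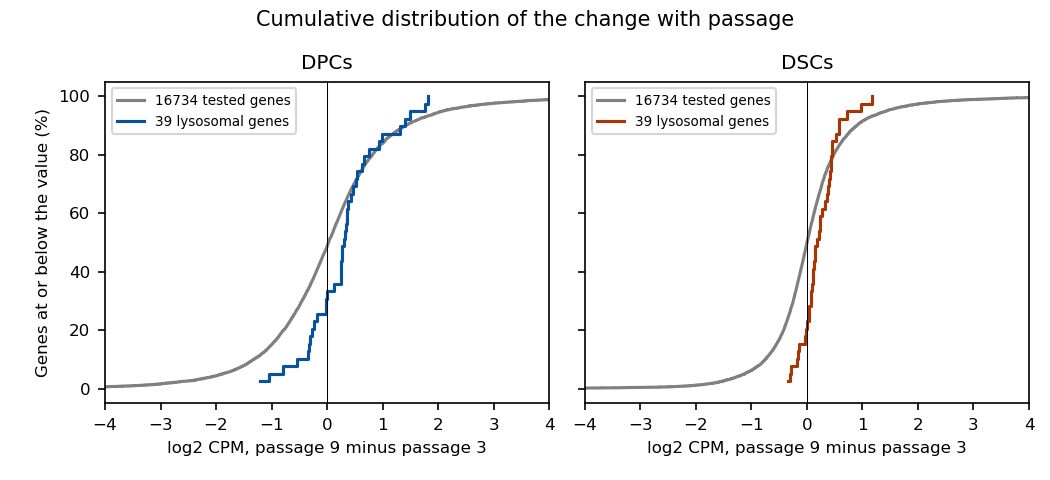
Percent of genes at or below a given change (log2 CPM at passage 9 minus passage 3, axis limited to 4 either way) for the 39 lysosomal genes in color and the 16734 tested genes in gray, with DPCs on the left and DSCs on the right. The colored curves cross 0 at a lower share of genes than the gray ones and stay within 2 units of 0 on either side.

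Among the glycosidases, which remove sugars from the ends of glycans, 7 of 9 were higher at passage 9 in DPCs and 8 of 9 in DSCs, with medians of 0.53 and 0.18. In DSCs Gusb and Neu1 were below 0 when FPKM was used instead. Glb1 (ENSMUSG00000045594, chromosome 9, 114401076 to 114474898 on GRCm38, as for all positions here) had 79.2, 95.6, 107 and 122 CPM on 2915, 3429, 4072 and 5542 counts. Its change was 0.27 (95% interval 0.20 to 0.34) in DPCs and 0.18 (0.12 to 0.24) in DSCs, or 1.21-fold and 1.13-fold. The beta-galactosidase gene was thus slightly higher in both high-passage libraries, below the median change in DPCs and at it in DSCs. It shares 5.5% of its exonic bases with Tmppe on the same strand, a gene with 282 to 314 counts.

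Gaa (chromosome 11, 119267887 to 119285454), the acid alpha-glucosidase that degrades glycogen, had 299, 841, 551 and 822 CPM. It rose by 1.49 (1.46 to 1.52) in DPCs, and its change in DSCs was 0.58 (0.55 to 0.60). The high-passage libraries were nearly equal, and low-passage DPCs stood lowest. Idua (chromosome 5, 108660331 to 108684557), the alpha-L-iduronidase of dermatan and heparan sulfate breakdown, had 516, 1255, 681 and 1838 counts, or 14.0, 35.0, 18.0 and 40.3 CPM. It rose in both cell types, with a change of 1.32 (1.17 to 1.47) in DPCs. In DSCs the change was 1.16 (1.04 to 1.30). Both high-passage libraries lay above both low-passage ones, though on the FPKM scale the change in DSCs was less than 2-fold. Naglu, which acts on heparan sulfate, came next in DPCs with 0.93 (0.83 to 1.04), and its change in DSCs was 0.45. The other glycosidases ranged from -0.31 (Manba, the beta-mannosidase) to 0.62 (Neu1, the sialidase) in DPCs. In DSCs they ranged from -0.02 (Manba) to 0.36 (Man2b1, the alpha-mannosidase).

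The sulfatases take sulfate groups off glycosaminoglycans. Of the 4, 3 were higher at passage 9 in DPCs and all 4 in DSCs, with medians of 0.48 and 0.38. Arsb (chromosome 13, 93771630 to 93943016), which acts on dermatan and chondroitin sulfate, had 82.4, 279.8, 133 and 197 CPM. It rose by 1.76 (1.70 to 1.82) in DPCs, or 3.39-fold, and its change in DSCs was 0.57 (0.52 to 0.62). High-passage DPCs stood highest and low-passage DPCs lowest. Of its exonic bases 39.9% lie opposite other genes, of which Gm26527 had 20, 90, 31 and 69 counts beside 3032, 10040, 5030 and 8994 for Arsb, and whether the counting used strand is not stated. Galns had -0.01 (-0.15 to 0.13) and 0.08 (-0.03 to 0.19), with 0 inside both intervals. Ids, the iduronate sulfatase, had 0.44 and 0.52, and Sgsh, the heparan sulfamidase, had 0.53 and 0.24. The value of Sgsh in DSCs was below 0 when FPKM was used instead.

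The lipid and thioester hydrolases were mixed, with 2 of 4 higher in DPCs and 3 of 4 in DSCs. Smpd1 (chromosome 7, 105554360 to 105558389), the acid sphingomyelinase, had 89.2, 235, 101 and 168 CPM. It rose by 1.40 (1.34 to 1.46) in DPCs, and its change in DSCs was 0.72 (0.67 to 0.78). Both high-passage libraries lay above both low-passage ones. Lipa (chromosome 19, 34492318 to 34527474), the acid lipase that frees cholesterol from its esters, had 79.7, 54.5, 98.4 and 128 CPM. Its change was -0.55 (-0.63 to -0.47) in DPCs and 0.37 (0.32 to 0.43) in DSCs, so the cell types differed in sign. Asah1, the acid ceramidase, had -0.18 and -0.14, and Ppt1, the palmitoyl thioesterase, had 0.26 and 0.46. Among the carriers Psap had 0.26 and 0.33. Npc1 and Npc2, which move cholesterol out of the lysosome, had 0.25 and -0.24 in DPCs and 0.11 and 0.00 in DSCs.

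Of the 8 proteases, 5 were higher at passage 9 in DPCs and 6 in DSCs, with a median of 0.19 in each. In DSCs Ctsa was below 0 when FPKM was used instead. Ctsb (chromosome 14, 63122462 to 63145919 by the deposited table), an abundant cysteine cathepsin, had 479, 1681, 706 and 1388 CPM. It rose by 1.81 (1.79 to 1.84) in DPCs, or 3.51-fold, which was the largest change of the 39 genes. In DSCs its change was 0.98 (0.95 to 1.00), just under 2-fold. Both high-passage libraries stood well above both low-passage ones. Ctsb shares 12.8% of its exonic bases with Fdft1 on the other strand, which had 4705, 3269, 3429 and 3886 counts, the highest in the library where Ctsb was lowest.

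Ctsk (chromosome 3, 95499256 to 95509362), a collagen-degrading cathepsin, had 162, 70.0, 209 and 165 CPM. It fell by 1.21 (95% interval -1.28 to -1.14) in DPCs, and its change in DSCs was -0.35 (-0.39 to -0.30). High-passage DPCs stood apart as the lowest library. Ctss (chromosome 3, 95526786 to 95556403), the cathepsin best known from antigen-presenting cells, had 213, 100, 319 and 314 counts, or 5.79, 2.79, 8.41 and 6.89 CPM. It fell by 1.04 (95% interval -1.41 to -0.71) in DPCs, and its change in DSCs was -0.29 (-0.52 to -0.06). The interval in DPCs reached below 2-fold, and that in DSCs included 0 with halved counts. Macrophage markers moved the same way, from 165 to 69.5 CPM in DPCs and from 215 to 114 in DSCs in sum. Their part in the result was not tested, and in bulk RNA fewer cells of a type cannot be told apart from less RNA per cell. Of the 6 osteoclast markers, which were examined because osteoclasts are rich in Ctsk, Calcr and Dcstamp had 3 counts or fewer in each library, and the list summed to 1.41, 1.20, 3.16 and 3.31 CPM. Acp5 had 11, 0, 97 and 69 counts, and Oscar had 14, 33, 0 and 41. Atp6v0d2 had 23, 10, 15 and 41 counts, and Ocstamp had 4, 0, 8 and 0. The part of osteoclasts in the values of Ctsk was not tested. The other proteases in DPCs ranged from -0.35 (Ctsz, a carboxypeptidase) to 0.66 (Tpp1, a tripeptidyl peptidase). In DSCs they ranged from 0.10 (Ctsa, which shields the Glb1 and Neu1 enzymes) to 0.44 (Ctsz). Ctsd, the main aspartic protease, had 0.26 and 0.24, and Ctsl, another abundant cysteine cathepsin, had 0.12 and 0.13. Of the exonic bases of Ctsd 34.4% belong to Gm49369 on the same strand as well.

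Among the membrane proteins, 6 of 8 were higher at passage 9 in DPCs and 5 of 8 in DSCs, with medians of 0.36 and 0.09. Lamp1 (chromosome 8, 13159161 to 13175338) had 1657, 2142, 2297 and 2371 CPM. Its change was 0.37 (0.35 to 0.39) in DPCs and 0.05 (0.03 to 0.06) in DSCs, and low-passage DPCs stood apart as the lowest library. Lamp2 (chromosome X, 38401357 to 38456454), which also serves chaperone-mediated autophagy, had 644, 636, 806 and 784 CPM. Its change was -0.02 (-0.05 to 0.01) in DPCs and -0.04 (-0.06 to -0.02) in DSCs. The value in DPCs was above 0 when FPKM was used instead. Both Lamp genes were lower in each DPC library than in either DSC library.

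Gpnmb (chromosome 6, 49036546 to 49070929), a transmembrane glycoprotein found in macrophages and melanocytes, had 543, 1070.3, 723 and 647 CPM. Its change was 0.98 (0.96 to 1.00) in DPCs and -0.16 (-0.18 to -0.14) in DSCs. Only high-passage DPCs stood above the other libraries. The summed level of the macrophage markers was lowest in that library, with 69.5 CPM, although Ptprc and Aif1 were lower still in high-passage DSCs. Of the 8 melanocyte markers Tyr, Tyrp1, Dct, Mlana, Slc45a2 and Oca2 had 3 counts or fewer in each library, and the list summed to 1.22, 1.00, 3.98 and 1.03 CPM. Pmel had 17, 36, 33 and 47 counts, and Sox10 had 28, 0, 116 and 0. The part of macrophages or melanocytes in the values of Gpnmb was not tested. Mcoln1, the cation channel that releases lysosomal calcium, had 50.7, 70.3, 73.3 and 64.9 CPM, with changes of 0.47 in DPCs and -0.17 in DSCs. Cd63, a tetraspanin of late endosomes and lysosomes, had 618, 493, 589 and 708 CPM, with changes of -0.33 and 0.26. These 3 genes had changes of opposite sign in the cell types. Scarb2, a receptor that carries enzyme to lysosomes, had 0.34 and 0.14, and Laptm4a had 0.30 and 0.42. Cln3 had 0.76 (0.53 to 1.01) and 0.43 (0.20 to 0.67).

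The 2 proton pump subunits differed from each other. Atp6v0d1, of the membrane sector, had 182, 105, 198 and 159.9 CPM. Its change was -0.80 (-0.85 to -0.74) in DPCs and -0.31 (-0.36 to -0.26) in DSCs, with high-passage DPCs the lowest. Atp6v1h, of the cytosolic sector, had 0.01 (-0.07 to 0.08) and 0.21 (0.14 to 0.29). Tfeb (chromosome 17, 47737030 to 47792419), a transcription factor that drives lysosomal genes, had 218, 273, 331 and 422 counts, or 5.92, 7.61, 8.73 and 9.26 CPM. Its change was 0.36 (0.10 to 0.62) in DPCs and 0.08 (-0.13 to 0.30) in DSCs, and with halved counts both intervals included 0.

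**Figure D3:**
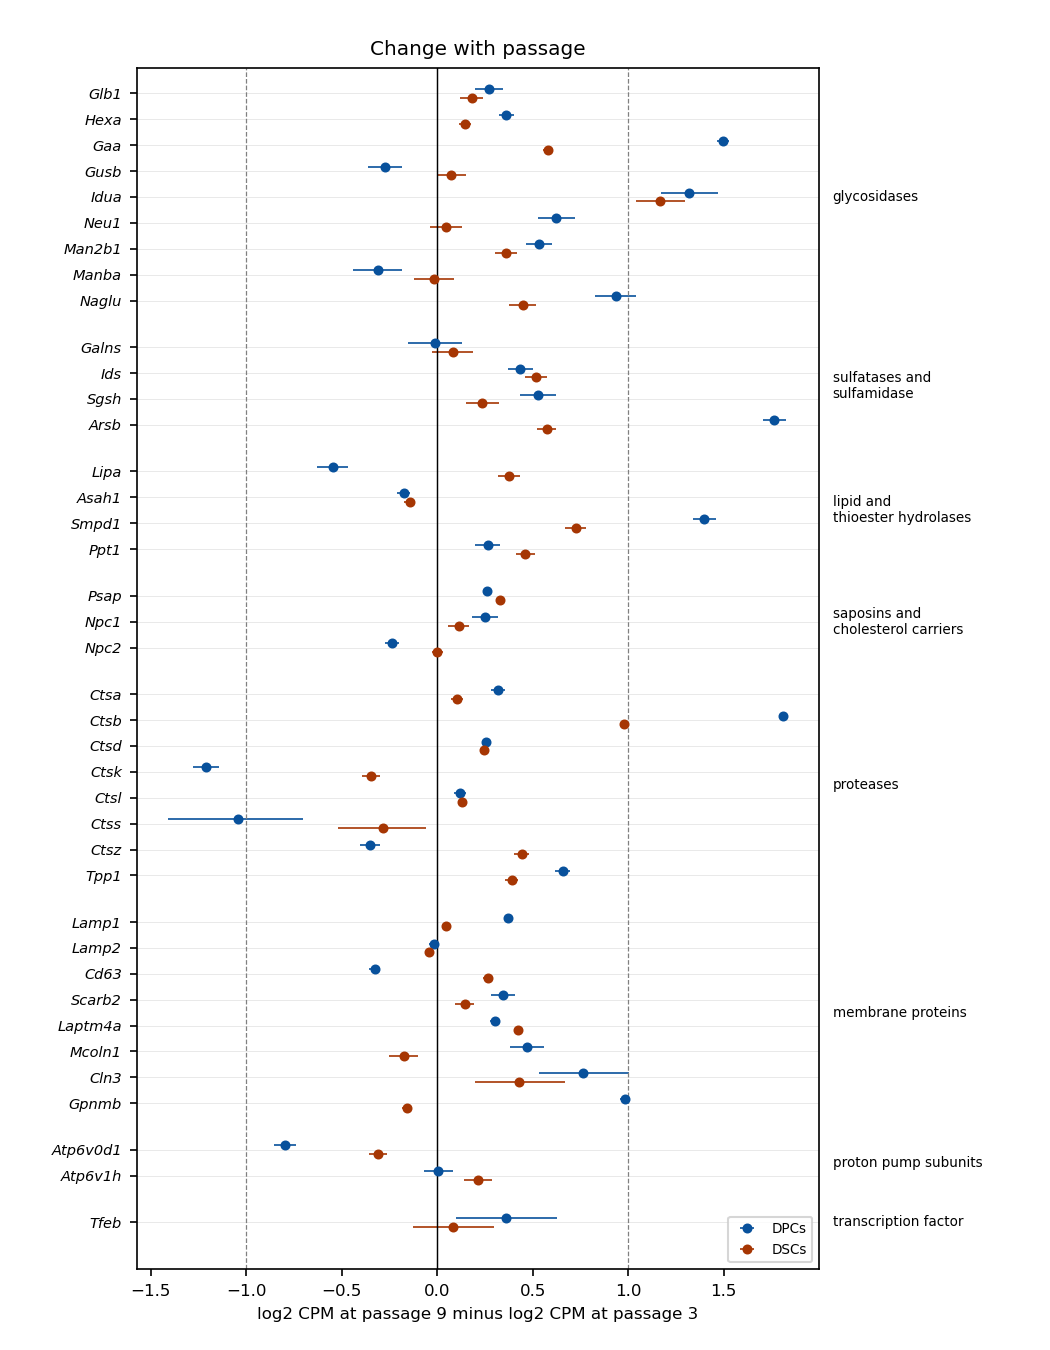
Change with passage of each of the 39 genes (log2 CPM at passage 9 minus passage 3) by role, DPCs in blue and DSCs in red-brown, with 95% counting intervals and dashed lines at 2-fold. Ctsb, Arsb, Gaa, Smpd1 and Idua lie past the right line in DPCs and Ctsk and Ctss past the left one, while Idua alone passes in DSCs.

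A change shared by both cell types was examined with an additive model of cell type and passage. Its 1 residual degree of freedom measures how far DPCs and DSCs differ in response, not the spread between cultures. edgeR's quasi-likelihood test with Benjamini-Hochberg adjustment called 0 of the 39 members at an adjusted p under 0.05, and 0 of all tested genes, of which 2822 had an unadjusted p under 0.05. The smallest adjusted p of a member was 0.188. At an unadjusted p under 0.05, Gaa, Idua, Naglu, Arsb, Smpd1 and Ctsb were higher (15.4%, beside 9.07% of the tested genes) and Ctsk was lower, beside 7.79%. The DESeq2 Wald test called 955 genes, among them Gaa, Idua, Arsb, Smpd1 and Ctsb, with a smallest adjusted p of 0.00154 among the members. All 5 were above 0 in both cell types. Across the 39 genes the changes in DPCs and DSCs were correlated at 0.71 by Pearson and 0.56 by Spearman, beside 0.47 and 0.52 across the tested genes. Genes of the same libraries are not independent, so no test was made.

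The members were also divided by promoter motif. The 5 with TCACGTGA had a median of 0.32 in DPCs, beside 0.34 for the 29 without it, and one of 0.10 in DSCs, beside 0.24. Among the tested genes, 235 with this motif had medians of 0.14 and 0.03, beside 0.03 and 0.02 for those without it. For the E-box the medians were 0.37 and 0.18 for 11 genes with it, and 0.30 and 0.26 for 23 without. Among the tested genes they were -0.0045 and -0.0009 for 1263 with it, and 0.0428 and 0.0219 for 9731 without. Among the genes past 2-fold, Gaa held an E-box, and Idua, Arsb, Smpd1, Ctsk and Ctss held neither motif in these windows. No promoter of Ctsb was in the table.

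DPCs were then compared with DSCs at each passage, to place the change with passage beside the difference between the cell types. At passage 3, only 4 of the 39 members were higher in DPCs, namely Cd63, Laptm4a, Cln3 and Atp6v1h, where 50.2% of the tested genes were. The median difference, DPCs minus DSCs, was -0.44 at passage 3 beside 0.00 for the tested genes, and -0.35 at passage 9 beside -0.01. At passage 9, 11 members were higher in DPCs, where 49.0% of the tested genes were. At both passages 26 members (66.7%) were lower in DPCs, against 26.5%. The 95% interval left out 0 for 38 members at passage 3, beside 59.5% of the tested genes, and for 37 at passage 9, beside 70.7%. With halved counts it did so for 37 and 35, beside 46.9% and 61.2%.

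Few of these differences reached 2-fold. No member was 2-fold higher in DPCs at passage 3, where 5.43% of the tested genes were, or at passage 9, where 9.11% were. Naglu alone was 2-fold lower in DPCs at passage 3, beside 7.86% of the tested genes, and Lipa, Ctsk and Ctss were at passage 9, beside 11.0%. Naglu (chromosome 11, 101070012 to 101077672) had 29.4, 56.3, 71.2 and 97.0 CPM. The difference was -1.27 (-1.38 to -1.17) at passage 3 and -0.79 at passage 9, and even high-passage DPCs lay below low-passage DSCs. For Lipa the difference was -0.30 at passage 3 and -1.23 (-1.30 to -1.15) at passage 9. Ctsk went from -0.37 to -1.23 (-1.30 to -1.17), and Ctss from -0.54 to -1.29 (-1.65 to -0.98). Ctsd had 797, 952, 1508 and 1784 CPM, with differences of -0.92 and -0.91.

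The glycosidases and the proteases were lower in low-passage DPCs without exception, 9 of 9 and 8 of 8, with medians of -0.46 and -0.49. The membrane proteins were divided, with 5 of 8 lower at passage 3 and 4 of 8 at passage 9. Gaa, Arsb, Smpd1, Ctsb and Gpnmb were lower in DPCs at passage 3, with -0.88, -0.69, -0.19, -0.56 and -0.41, and at passage 9 had 0.03, 0.50, 0.49, 0.28 and 0.73. Glb1 was lower in DPCs at both passages, with -0.44 (-0.51 to -0.37) and -0.35 (-0.41 to -0.29), a difference larger than its change with passage in either cell type. With 1 library for each cell type and passage, cell type and culture cannot be told apart. The plot of differences sets these values side by side.

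**Figure D4:**
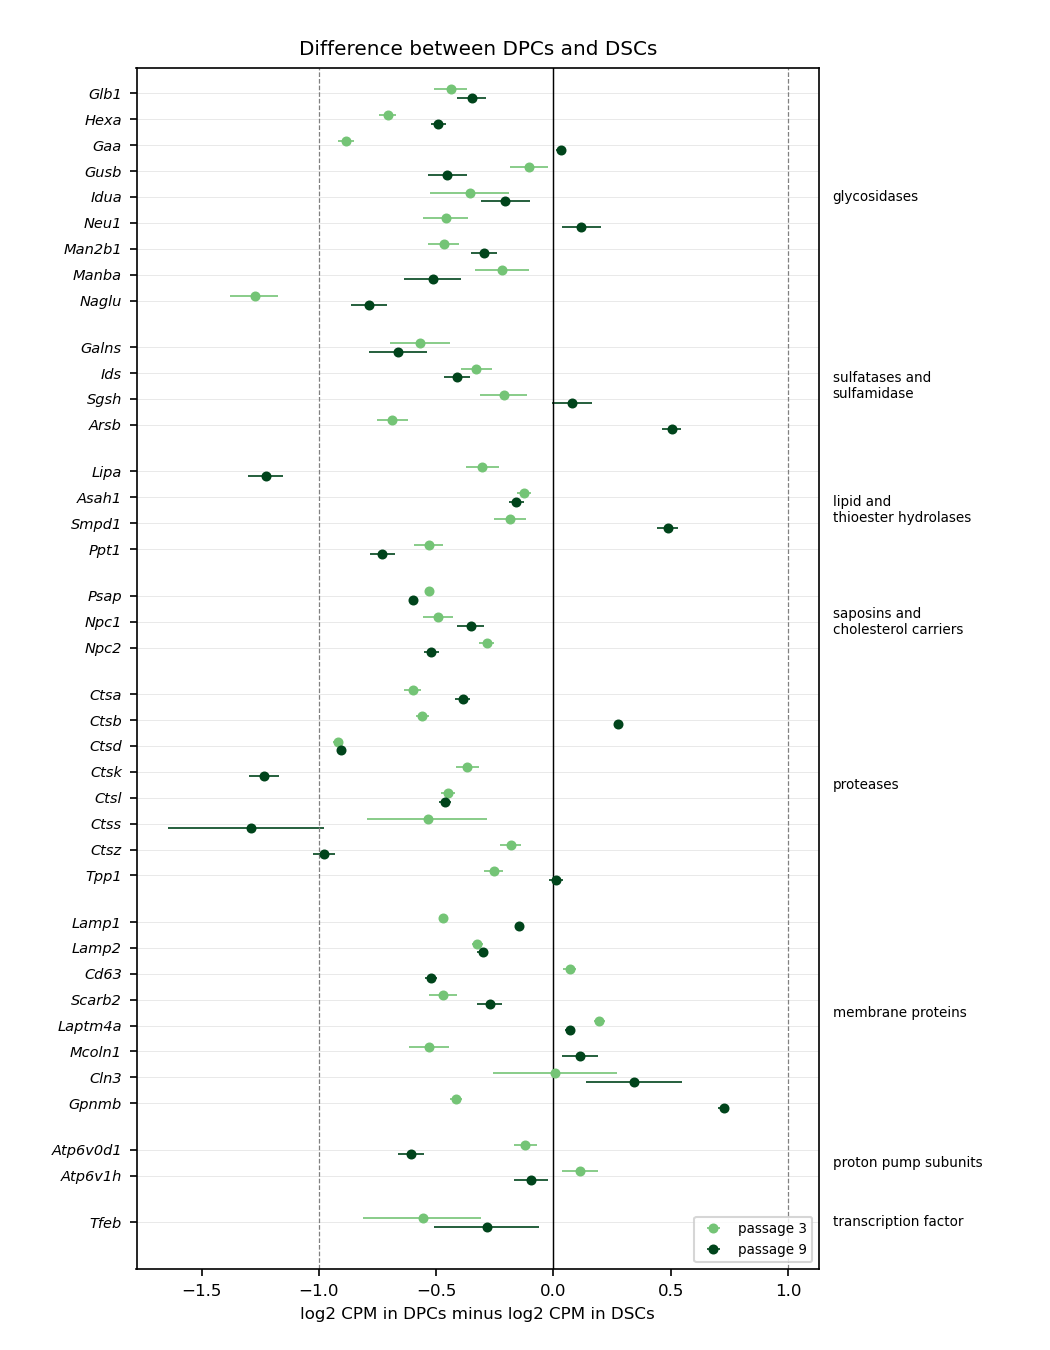
Difference between DPCs and DSCs (log2 CPM in DPCs minus DSCs) for the 39 genes by role, passage 3 in light green and passage 9 in dark green, with 95% counting intervals and dashed lines at 2-fold. At passage 3, 35 of 39 points lie left of 0, and Naglu alone passes the left line.

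Other genes of the lysosomal system were read in lists that exclude the 39 members. Of 33 other hydrolases and cofactors, 24 were higher at passage 9 in each cell type, where 51.3% of the tested genes were in DPCs and 50.2% in DSCs. Their medians were 0.61 and 0.33. In DPCs 7 were at least 2-fold higher and 3 lower, where 16.1% and 15.0% of the tested genes were. In DSCs 2 were higher and 2 lower, where 8.55% and 6.21% were. The same shares of the tested genes apply to the lists that follow. In low-passage DPCs 28 of the 33 genes lay below DSCs, with a list median of -0.34, where 50.2% of the tested genes lay above. At passage 9, 23 of the 33 lay below, with a list median of -0.19, where 49.0% lay above. Ctsh, an aminopeptidase of the cathepsin family, had 1096, 3710, 754 and 2188 counts and rose by 1.79 (1.70 to 1.89) and 1.27 (1.15 to 1.39). Ctsc, the cathepsin that activates serine proteases of immune cells, had 1142, 171, 583 and 225 counts and changed by -2.69 (-2.94 to -2.47) and -1.63 (-1.87 to -1.41).

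Of 27 other membrane proteins and transporters, 18 were higher in DPCs and 12 in DSCs, with medians of 0.19 and -0.21. In DPCs 3 were 2-fold higher and 3 lower, and in DSCs 0 and 2. Laptm5, a lysosomal protein of blood cells, had 736, 98, 489 and 186 counts and changed by -2.85 and -1.65. As beside Ctss, macrophage markers were lower at passage 9, and their part in the values of Ctsc and Laptm5 was not tested. The chloride transporter gene Clcn6 had 1304, 378, 1392 and 673 counts and changed by -1.75 and -1.31. The 15 other proton pump subunits had medians of -0.20 and -0.11, with 4 of them above 0 in DPCs and 6 in DSCs. Of these, 1 was 2-fold lower in DPCs and none in DSCs. The 15 genes of enzyme sorting had medians of 0.05 and -0.01, with 1 gene 2-fold higher and 1 lower in DPCs and 1 higher in DSCs. Sort1, a sorting receptor, had 1366, 4637, 1954 and 4746 counts and rose by 1.80 (1.71 to 1.89) and 1.01 (0.94 to 1.09).

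The 21 tested genes of the Tfeb family and of nutrient sensing at the lysosome had medians of -0.41 and -0.09, with 2 at least 2-fold higher and 4 lower in DPCs and none in DSCs. Mitf, a relative of Tfeb, had 394, 980, 435 and 544 counts. It rose by 1.35 (1.18 to 1.52) in DPCs, and its change in DSCs was 0.06 (-0.13 to 0.24). Tfe3, another relative, had 0.39 and 0.01, close to the values of Tfeb. The 21 autophagy genes had medians of 0.07 and 0.10, with 1 gene 2-fold higher in DPCs. Of the 6 lists, the other hydrolases had the highest median in both cell types, as the plot of lists shows.

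**Figure D5:**
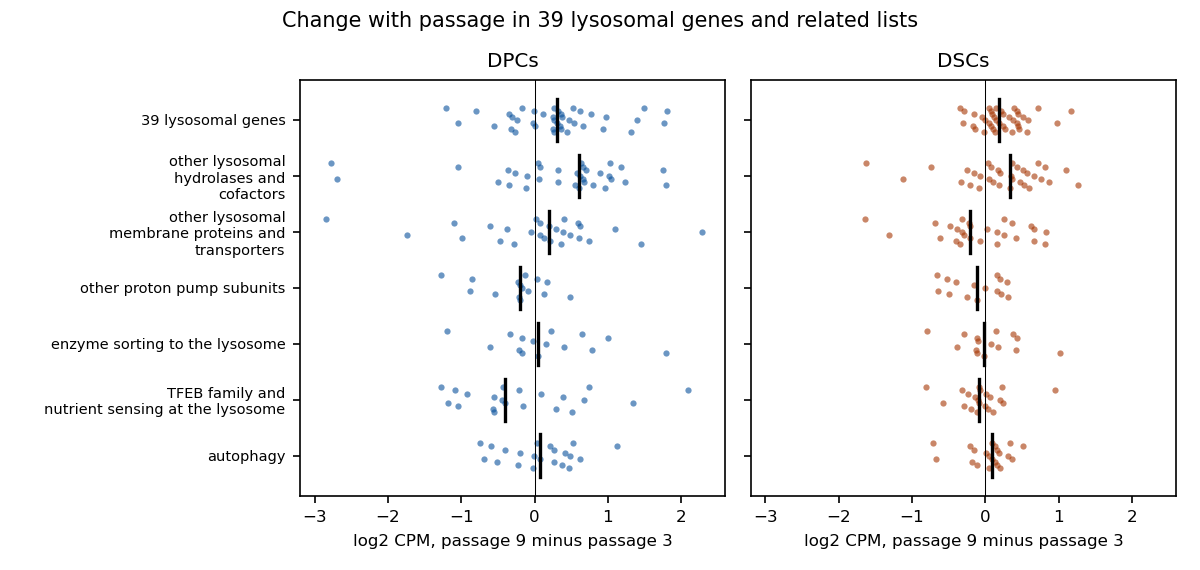
Change with passage (log2 CPM at passage 9 minus passage 3) of each tested gene in the 39 lysosomal genes and in 6 related lists, 1 point per gene, with a black bar at the median of a list, DPCs on the left and DSCs on the right. The bar of the other hydrolases lies furthest right, at 0.61 and 0.33, and that of the members at 0.30 and 0.18.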

How the data were processed

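RNA sequencing was done on 4 libraries, 1 for each cell type (DPCs, DSCs) and passage (3, 9). The authors deposited whole-number counts per gene, not normalized, and FPKM values per library, which the authors scaled by the length of the transcript and the depth. The submitters' processing notes list Bowtie 0.12.2 and the builds mm8 and mm9, with no role given. The counting program and its use of strand were not given in the sources used here. Of 51826 gene IDs, 51633 were in GENCODE M21 on GRCm38, and 48617 of them (94.2%) had the same position there, as did 37 of the 39 members (not Npc1 and Ctsb). Positions are those of the table. Per library 1339 to 1541 genes had 2 counts and 558 to 607 had 3. Counting both mates of a pair would give an excess of even counts. Whether both mates were counted was not tested, so intervals were also computed on halved counts. Of the members, 15 share exonic bases with another gene and 8 share over 10% of their 50-base windows with other transcripts.

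Counts were scaled with TMM in edgeR 4.0.16 (R 4.3.3), and log2 CPM used a prior count of 2. Genes with a mean count of at least 10 were tested. Differences between single libraries carry exact Clopper-Pearson intervals for counting error and no p-value. The additive model used edgeR's quasi-likelihood test with Benjamini-Hochberg adjustment, with DESeq2 1.42.0 as the alternative. The model code was tested on simulated data. Alternatives were scaling by total counts, by the upper quartile or by DESeq2 size factors, prior counts of 0.5 and 10, FPKM plus 0.1 or 1, a minimum mean count of 100, no filter and, chosen after seeing the data, a minimum of 1000.

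The members, the related lists and the tests were chosen with earlier results of these data known. Values in every library were given for Glb1, Lamp1, Lamp2, Tfeb and members with a 2-fold change in either cell type, and for further members picked after their values were seen (Psap, Naglu, Lipa, Ctsd, Gpnmb, Mcoln1, Cd63 and Atp6v0d1). The other members were given by their changes. From the related lists, genes with a 2-fold change of the same sign in both cell types were named, with Tfe3 and Mitf. Some further genes that had been chosen for naming are not reported here. Promoters came from the RefSeq table for GRCm38.p6, which held none for Galns, Asah1, Npc1, Ctsb and Atp6v1h.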

Additional observations from a re-analysis of the deposited data

Results flagged for a closer look

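Of the 39 genes, 8 had changes of opposite sign in DPCs and DSCs, and for 5 of them the counting intervals of both cell types lay on opposite sides of 0 with halved counts. The difference between the cell types was not tested for any of them, since each group had 1 library. The change in DPCs minus that in DSCs was -0.92 for Lipa, -0.80 for Ctsz and -0.59 for Cd63, which were lower at passage 9 in DPCs and higher in DSCs. It was 0.64 for Mcoln1 and 1.14 for Gpnmb, which were higher in DPCs and lower in DSCs. Cd63 shares 11.07% of its 50-base windows with other transcripts.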

How the results depend on the processing

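The directions of the medians held under all 10 alternatives, the minimum mean count of 1000 included. In DPCs 1 member instead of 2 was 2-fold lower with a prior count of 10, with FPKM plus 1 and with a minimum of 1000, which left 36 members. Ctss was no longer called, or at a minimum of 1000 no longer tested. In DSCs FPKM plus 0.1 and FPKM plus 1 both gave a median of 0.12 and 0 members 2-fold higher. Both put 26 members above 0 instead of 31, with Gusb, Neu1, Sgsh, Npc2 and Ctsa turned below 0. The median difference between DPCs and DSCs at passage 9 was -0.25 with total counts, -0.20 with FPKM plus 0.1 and -0.19 with FPKM plus 1. DESeq2 called 955 genes for the additive model and edgeR 0. The cause of these shifts was not tested. Wherever they were tested, all 39 members kept the sign of the difference at passage 3 under the 10 alternatives, 36 that of the change in DPCs, 34 that of the change in DSCs and 36 that of the difference at passage 9. Gpnmb passed 2-fold in DPCs with a minimum of 100, and Ctsz was 2-fold lower in DPCs than in DSCs at passage 9 without a filter. Ctss was no longer 2-fold lower in that comparison with FPKM plus 1, which left 2 members instead of 3. No library could be left out, because each group had 1. The only pairing was the cell type term of the additive model, which compares the passages within a cell type. Without that term edgeR called 0 genes as well, with a smallest adjusted p of 0.305. Counts were lowest for Ctss, Tfeb and Cln3, with 100 to 422 per library.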
